A study of Mus musculus with 8 samples.

Results

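Transcripts of potassium channel subunits were compared in the hippocampus between young mice aged 3 months (3M) and aged mice of 29 months (29M). The genes were taken by name: every probe whose gene symbol starts with Kcn was kept, and the Kcne genes, which encode small accessory subunits, were left out. This gave 117 probes for 88 genes, out of 39429 probes and 19751 named genes on the array. Of the 88 genes, 60 had 1 probe, 27 had 2 and Kcnc1 had 3, and another 5 Kcn genes of the annotation had no matched probe (Kcnd3os, Kcng2, Kcnk7, Kcnmb3 and Kcnmb4os2). All mice were wild type C57BL/6J that received no treatment and aged in the home cage, and the whole hippocampus was dissected by hand. The aged mice were bought old and kept on for some months, so their age is a range around the label. Each group had 4 samples, each measured on its own 1-colour microarray, where spots that bind more Cy3-labelled target are brighter. The labels name the samples separately but do not say that each is 1 animal, so the p-values measure the spread between these samples. Each scanner file was taken as the sample it was deposited under. A second deposited table assigned 7 of the 8 arrays to other samples, and every comparison of 29M with 3M rests on the scanner files' assignment, which was not tested.

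Potassium channels let potassium leave the cell and so pull the membrane back towards rest. Voltage-gated channels, which are built from several pore-forming subunits and often carry auxiliary ones, end the action potential and set how often a neuron fires. Calcium-activated channels shape the hyperpolarisation that follows a spike, inward rectifiers and tandem pore domain (K2P) channels hold the resting potential, and in glia the inward rectifiers also take up extracellular potassium. Most of these channels are assembled from several genes, so the members are described here by their roles.

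Levels are given as generalized log2 values of the normalised intensity, and a change is the mean of 29M minus the mean of 3M on that scale, which understates the change of dim probes. Probes of different genes bind with different strength, so only levels of the same probe were compared. Of the 117 Kcn probes, 101 were well above background on all usable arrays of both groups, 13 on some arrays and 3 on none (Kcnj1, Kcnn1 and the dimmer probe of Kcnj15). The arrays lay on 3 slides, each with both groups. Slide 1 held replicate 1 of 3M and replicates 3 and 4 of 29M. Slide 2 held replicate 2 of each group, and slide 3 held replicates 3 and 4 of 3M and replicate 1 of 29M. Replicate 1 of 3M had the lowest share of spots well above background (76.2%, against 78.9% to 85.0% on the others). It was the only array that the scanner software marked for evaluation. Replicates 3 and 4 of 29M, also on slide 1, had 80.6% and 78.9%, against 81.7% to 85.0% on slides 2 and 3. All markers of 13 cell type lists that had a probe were above background, those of hippocampal neurons and dentate granule cells among them. For 11 of these lists the mean level per array overlapped between the groups. The means of the microglia and astrocyte lists were higher in every array of 29M. For astrocytes the lowest mean of 29M was 14.27 and the highest of 3M 14.25. Of the 7 astrocyte markers 4 were higher and 3 lower, with a median log2 change of 0.08. The largest rise among them was that of Gfap (0.71), which was called.

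Most Kcn genes differed little with age. Called lower in 29M were the auxiliary subunit Kcnmb2 and, on its dimmer probe only, the non-coding RNA Kcnq1ot1. The call of Kcnmb2 was lost in 6 of 19 alternative settings. No Kcn gene was called higher (limma, adjusted p under 0.1 and a change of at least 0.5, which is 1.41-fold). Thus 2 of 117 probes (1.71%) were called, beside 1.97% of all 39408 probes tested. By direction, 1.71% of the Kcn probes were called lower and 0% higher, beside 0.761% and 1.21% of all probes. At an unadjusted p under 0.05 in limma, 7 Kcn probes were higher (5.98%, against 8.2% of all probes) and 11 were lower (9.4%, against 8.84%). The 8 arrays separated by age without overlap in 12 Kcn probes (10.3%), a share close to the 11.1% of all probes. Of these, 4 were higher (3.42%, against 5.47%) and 8 lower (6.84%, against 5.61%). Lower values of any size were found in 70 Kcn probes (59.8%, against 49.5%). The share called did not set the Kcn genes apart from the array as a whole.

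Taking for each gene its brightest probe, 33 Kcn genes were higher in 29M and 55 were lower by any amount. The median log2 change was -0.04, beside 0.01 over all genes, and the SD of the same median between arrays of a group was 0.035. Of the 88 genes, 78 changed by less than 0.3 on the log2 scale and 10 by at least 0.3, beside 2891 of all 19742 genes. For 9 of the 88 the brightest probe was not above background on all arrays of either group. For 85 of the 117 probes the 95% confidence interval of the log2 change lay between -0.5 and 0.5, so that a change as large as the minimum was outside the interval. For the other 32 probes, both called ones among them, the interval reached that size. The 85 include dim probes such as that of Kcnj1, which was well above background on no array (interval -0.34 to 0.31). For such probes the scale understates a change, and a narrow interval excludes none.

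**Figure D1:**
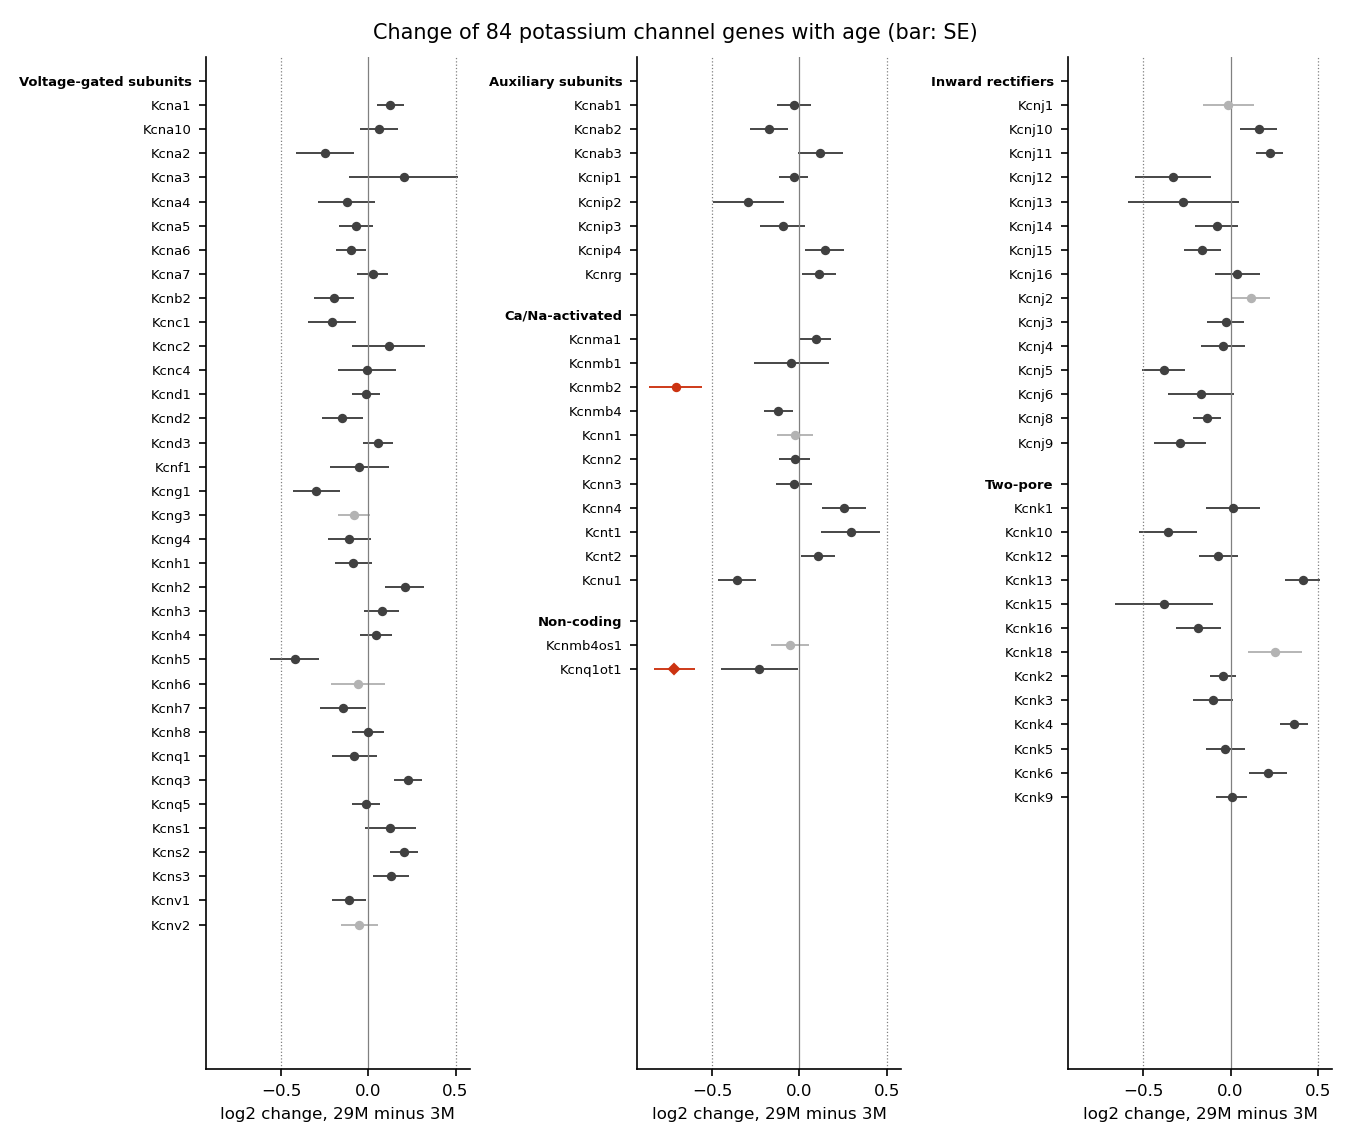
Change of 84 Kcn genes between 3M and 29M (x axis, log2, 29M minus 3M; bars are SE, 4 arrays a group), grouped by role. Points are the brightest probe of a gene, red marks a called probe, the red diamond is the dimmer probe of Kcnq1ot1, grey marks genes whose plotted probe was not above background on all arrays of either group, and dotted lines mark -0.5 and 0.5. Most genes lie within 0.3 of 0, and the called probes of Kcnmb2 and Kcnq1ot1 lie farthest to the left.

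The calcium- and sodium-activated channels held the largest fall among the protein-coding Kcn genes. BK channels, the large-conductance calcium-activated channels, consist of the pore-forming subunit Kcnma1 and auxiliary beta and gamma subunits that set their calcium sensitivity and gating. Kcnmb2 encodes the beta subunit that makes BK channels inactivate. Its brightest probe (A_55_P2112524) had log2 levels of 9.65, 9.25, 9.52 and 9.25 in the 4 arrays of 3M and of 8.63, 8.69, 9.10 and 8.42 in those of 29M. Every array of 29M was below every array of 3M. Kcnmb2 thus fell by 0.71 on the log2 scale (limma SE 0.15, 1.63-fold, adjusted p = 0.0568). The log2 change was -0.90, -0.56 and -0.75 within slides 1, 2 and 3. With slide as a fixed block it was -0.75 (limma adjusted p = 0.0976), and over 19 alternative settings the adjusted p ran from 0.0306 to 0.157. In bulk tissue, fewer cells of a type and less RNA per cell cannot be told apart.

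The dimmer probe of Kcnmb2 (A_55_P2007761) moved in the same direction. It had log2 levels of 6.59, 6.55, 6.60 and 6.45 in 3M and of 6.19, 6.28, 6.32 and 6.22 in 29M, where 3 of 4 arrays were well above background. Again the groups did not overlap. Its log2 change of -0.29 (limma SE 0.07, adjusted p = 0.0821) was under the minimum of 0.5. Its size moved with the processing. It was -0.57 when the background-subtracted (processed) signals were used and scaled to each array's 75th percentile (limma adjusted p = 0.113) and -0.22 with normexp and quantile normalization (limma adjusted p = 0.137), and the probe was not called in either. The call of Kcnmb2 was close to its threshold: 6 of the 19 alternatives ended it. These were an adjusted p under 0.05 and leaving out replicate 2 of 3M (log2 change -0.77), replicate 3 of 3M (-0.67), or replicates 1, 2 or 4 of 29M (-0.69, -0.70 and -0.61).

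The pore-forming subunit Kcnma1 was not called. Its brightest probe had log2 levels of 14.58, 14.72, 14.89 and 14.65 in 3M and of 14.83, 14.81, 14.66 and 14.90 in 29M, and the groups overlapped. The log2 change was 0.09 on the brightest probe (95% confidence interval -0.11 to 0.30) and 0.09 on the other (-0.14 to 0.33). Of the other beta subunits, Kcnmb4, the main one of neurons, had a log2 change of -0.12 (SE 0.08) on its brightest probe and 0.13 (SE 0.11) on the other. Kcnmb1, the beta subunit of smooth muscle, had a log2 change of -0.05 (SE 0.22).

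Among 34 partner genes of potassium channels that do not carry a Kcn symbol or belong to Kcne, 32 had a probe, and 1 of their 51 probes was called, a share near the 1.97% of all probes. This was Lrrc55, which encodes a gamma subunit of BK channels. Its log2 levels were 11.60, 11.22, 11.58 and 11.48 in 3M and 10.69, 10.73, 10.75 and 10.59 in 29M. Lrrc55 was thus lower in every array of 29M than in any of 3M, as Kcnmb2 was. It fell by 0.78 on the log2 scale (limma SE 0.10, 1.71-fold, adjusted p = 0.00725), and its log2 change was -0.93, -0.48 and -0.84 within slides 1, 2 and 3. Of the other BK gamma subunits, Lrrc26 and Lrrc38 had log2 changes of 0.06 and 0.17 and were not called. Lrrc26 was dim, and was well above background in 3 arrays of 3M and 4 of 29M. Lrrc52 was not well above background in any array, so its log2 change of -0.05 does not measure a difference. Over all partner genes the median log2 change was -0.05, with 14 genes higher and 18 lower. The mean log2 level of the neuron markers was 16.11 to 16.25 in 3M and 16.10 to 16.13 in 29M. That of the interneuron markers was 15.15 to 15.23 in 3M and 15.08 to 15.31 in 29M, and the part of either list in the fall of Kcnmb2 and Lrrc55 was not tested.

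No other calcium- or sodium-activated channel was called. Kcnn2, the main small-conductance (SK) channel of hippocampal pyramidal cells, had a log2 change of -0.03 (SE 0.09). For Kcnn3, another SK channel, the brightest probe gave a log2 change of -0.03 (SE 0.10). Its dimmer probe had log2 levels of 7.27, 7.19, 7.40 and 7.12 in 3M against 6.90, 6.98, 7.01 and 6.72 in 29M. These groups did not overlap, but the log2 change of -0.34 was not called (limma SE 0.09, adjusted p = 0.115). Kcnn1 was not well above background in any array. Kcnn4, the intermediate-conductance channel of microglia and blood cells, had a log2 change of 0.25 (limma SE 0.12, adjusted p = 0.337).

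The sodium-activated channels Kcnt1 and Kcnt2 had log2 changes of 0.29 (SE 0.17) and 0.11 (SE 0.10). For Kcnt1 the largest value was that of replicate 4 of 29M, at a log2 level of 12.40 against 11.36 to 11.81 in the other arrays. Kcnu1, a channel known from sperm, was counted with this group by its symbol. Its probe was above background on all arrays and had a log2 change of -0.36 (limma SE 0.11, adjusted p = 0.152). Its groups did not overlap, and it was not called.

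**Figure D2:**
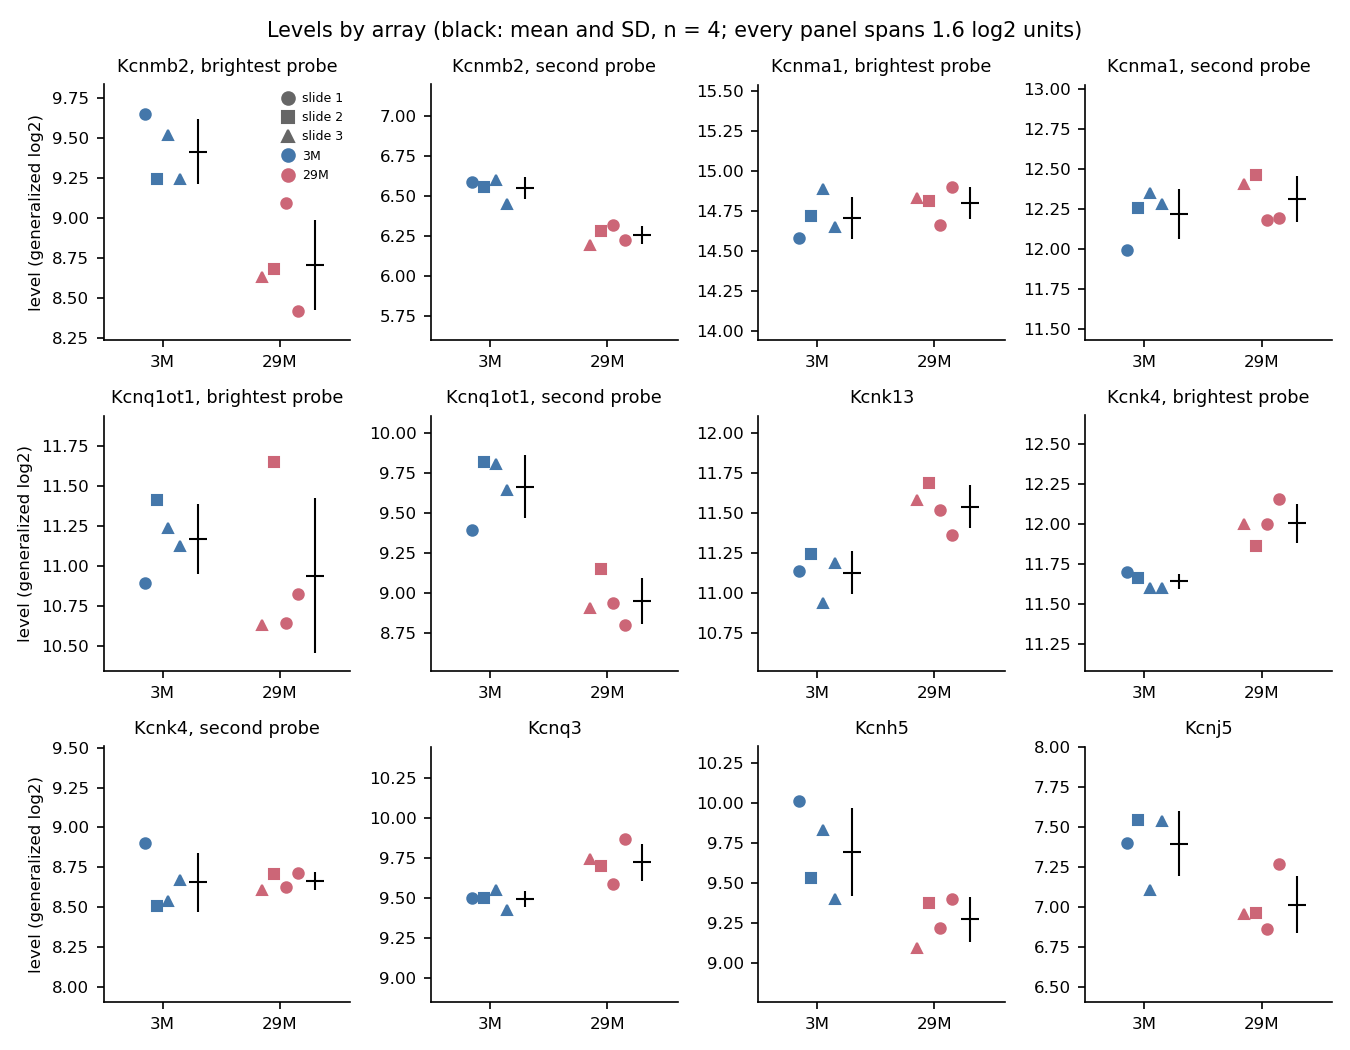
Generalized log2 levels by array in 3M (blue) and 29M (red) for probes of Kcnmb2, Kcnma1, Kcnq1ot1, Kcnk13, Kcnk4, Kcnq3, Kcnh5 and Kcnj5. Marker shapes are slides, black bars are mean and SD of 4 arrays, and every panel spans 1.6 log2 units. Both probes of Kcnmb2 and the dimmer probe of Kcnq1ot1 are lower in every array of 29M, while both probes of Kcnma1 overlap between the groups.

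The 39 genes of voltage-gated pore-forming subunits held no called gene. Their median log2 change was -0.05, with 16 genes higher and 23 lower. Kcnq3 encodes a subunit of the M channel, which opens near rest and limits repetitive firing. It had log2 levels of 9.50, 9.50, 9.55 and 9.43 in 3M and of 9.75, 9.70, 9.59 and 9.87 in 29M. The groups did not overlap, and the log2 change of 0.23 was not called (limma SE 0.08, adjusted p = 0.193). It depended on the signal used and was 0.03 with percentile-scaled processed signals and 0.04 where processed signals were variance stabilised. Kcnq5, another subunit of M channels, had a log2 change of -0.01 (SE 0.08).

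Of the shaker-type Kcna genes, which set the threshold and the delay of firing and sit on axons, 4 were higher and 4 lower. The axonal subunits Kcna1, Kcna2 and Kcna4 had log2 changes of 0.13 (SE 0.08), -0.25 (SE 0.17) and -0.13 (SE 0.17). Kcnc1 and Kcnc2, which allow fast spiking of interneurons, had log2 changes of -0.21 (SE 0.14) and 0.12 (SE 0.21). Kcnd2, which carries the dendritic A-type current of pyramidal cells, had a log2 change of -0.15 (SE 0.12), and its relative Kcnd3 one of 0.06 (SE 0.09). None of these differed beyond the spread between arrays (limma adjusted p of 0.459 to 0.827).

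The ether-a-go-go family (Kcnh) was also evenly divided, with 4 genes higher and 4 lower. Kcnh5 was the member with the largest change. Its log2 levels were 10.01, 9.53, 9.83 and 9.40 in 3M and 9.09, 9.37, 9.21 and 9.40 in 29M, so that the highest array of 29M lay just under the lowest of 3M. The log2 change of -0.42 was not called (limma SE 0.14, adjusted p = 0.172). Kcnh1, Kcnh3 and Kcnh7 of the same family had log2 changes of -0.09, 0.08 and -0.15. Among the electrically silent subunits, which form channels only together with subunits of another voltage-gated family, the log2 changes of Kcns1, Kcns2 and Kcns3 were 0.12, 0.20 and 0.13. Those of Kcng1 and Kcng4 were -0.30 and -0.11, and the dimmer probe of Kcng1 had a log2 change of 0.08. Kcng3 was well above background in 1 array of 3M and in no array of 29M, so its log2 change of -0.08 does not measure a difference. None of these 6 genes was called (the lowest limma adjusted p among them was 0.241).

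The auxiliary subunits of voltage-gated channels held no called gene (8 genes, median log2 change -0.03). Kcnab1 and Kcnab2, cytoplasmic beta subunits of Kcna channels, had log2 changes of -0.03 (SE 0.10) and -0.17 (SE 0.11). The Kcnip genes encode calcium-binding proteins that bring Kcnd channels to the membrane. Kcnip1, Kcnip2 and Kcnip3 had log2 changes of -0.03, -0.29 and -0.10. Kcnip4 had log2 changes of 0.14 (SE 0.11) on its brightest probe and 0.38 (limma SE 0.11, adjusted p = 0.125) on the other, and was not called.

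The inward rectifiers held no called gene either. Of their 15 genes 11 were lower in 29M, with a median log2 change of -0.08. The subunits of the G protein-gated channels, which carry slow inhibition by transmitters such as GABA and adenosine, are Kcnj3, Kcnj5, Kcnj6 and Kcnj9. Their log2 changes were -0.03 (SE 0.10), -0.38 (SE 0.12), -0.17 (SE 0.19) and -0.29 (SE 0.15). The lowest adjusted p among them was that of Kcnj5 (limma, 0.166), whose groups overlapped. Its log2 levels were 7.40, 7.54, 7.11 and 7.53 in 3M and 6.96, 6.96, 6.86 and 7.27 in 29M.

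The pore subunits of the ATP-sensitive channels differed little. Kcnj11, the neuronal one, had log2 levels of 10.10, 10.25, 10.31 and 10.08 in 3M and of 10.45, 10.39, 10.41 and 10.39 in 29M. Its groups did not overlap, and the log2 change was 0.22 (limma SE 0.08, adjusted p = 0.194). Its dimmer probe had a log2 change of -0.10. The brightest probe itself had one of -0.01 with percentile-scaled processed signals and of 0.005 where processed signals were variance stabilised. Its sign turned in 1 of 19 alternatives. Kcnj8, the subunit of pericytes and vessels, had a log2 change of -0.14 (SE 0.08). The astrocyte channels Kcnj10 and Kcnj16, which buffer extracellular potassium, had log2 changes of 0.16 (SE 0.11) and 0.04 (SE 0.13). Kcnj2, the classical inward rectifier, was well above background in 3 arrays of 3M and 2 of 29M, and its log2 change was 0.11 (SE 0.11).

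Kcnj13 is the inward rectifier of epithelia such as the choroid plexus, tissue that lies next to the hippocampus. Its log2 levels were 14.42, 14.74, 13.26 and 14.80 in 3M and 14.26, 13.94, 14.30 and 13.64 in 29M. Replicate 3 of 3M was the lowest of all arrays, below all of 29M, while the other arrays of 3M were above all of 29M. The log2 change was -0.27 (limma SE 0.32, adjusted p = 0.717). On the other probe, with 3 usable arrays of 3M, the log2 change was -0.56 (SE 0.44, adjusted p = 0.566), and replicate 3 was again the lowest of 3M. All 7 choroid plexus markers were above background. Their mean log2 level was 13.75 in replicate 3 of 3M, against 14.49 to 15.30 in the other arrays of 3M and 14.35 to 14.77 in 29M. The part of choroid plexus tissue in the values of Kcnj13 was not tested.

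Of the 13 K2P channels, 6 were higher and 7 lower, and none was called. An adjusted p under 0.1 without the minimum change was reached by Kcnk13 and Kcnk4, both higher in 29M. At this looser limit 5 Kcn probes passed (4.27%, against 3.71% of all probes). The 2 higher ones were those of Kcnk13 and Kcnk4 (1.71%, against 2.02%), and the 3 lower ones were both probes of Kcnmb2 and the dimmer probe of Kcnq1ot1 (2.56%, against 1.69%). Kcnk13 encodes a halothane-inhibited channel that holds the resting potential of microglia. It had log2 levels of 11.13, 11.24, 10.93 and 11.19 in 3M and of 11.58, 11.68, 11.52 and 11.36 in 29M. Every array of 29M was above every array of 3M. The log2 change was 0.41 (limma SE 0.10, 1.33-fold, adjusted p = 0.0769), and it was 0.31, 0.44 and 0.52 within slides 1, 2 and 3. The microglia markers, of which all 7 were above background and none was called, had mean log2 levels of 13.91 to 14.20 in 3M and 14.26 to 14.40 in 29M. Of these markers 6 were higher in 29M, with a median log2 change of 0.34 over the list, and their part in the difference of Kcnk13 was not tested.

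**Figure D3:**
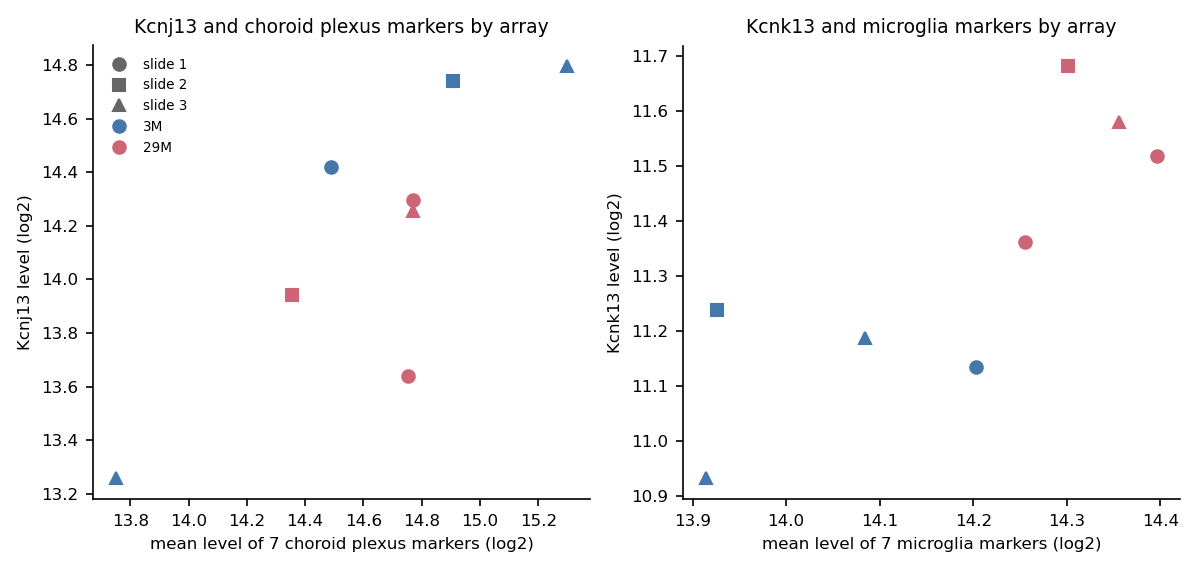
Log2 level of Kcnj13 against the mean log2 level of 7 choroid plexus markers (left), and of Kcnk13 against that of 7 microglia markers (right), with 1 point per array, 3M in blue and 29M in red, and marker shapes for slides. Replicate 3 of 3M lies lowest on both axes at the left, and the 4 arrays of 29M lie above those of 3M on both axes at the right.

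Kcnk4 encodes a mechanosensitive and lipid-sensitive K2P channel of neurons. Its brightest probe had log2 levels of 11.70, 11.66, 11.60 and 11.60 in 3M and of 11.86 to 12.15 in the 4 arrays of 29M. The groups did not overlap, and the log2 change was 0.36 (limma SE 0.08, 1.29-fold, adjusted p = 0.0645). The dimmer probe did not follow, with a log2 change of 0.01 (SE 0.10) and overlapping groups. With percentile-scaled processed signals the log2 change of the brightest probe was 0.22 (limma adjusted p = 0.384, the highest of the alternatives). Its relatives Kcnk2 and Kcnk10 had log2 changes of -0.04 (SE 0.07) and -0.36 (SE 0.17). Kcnk1, which is abundant in astrocytes and granule cells, had a log2 change of 0.02 (SE 0.15). Kcnk6 and the acid-sensitive Kcnk9 had log2 changes of 0.22 (SE 0.11) and 0.01 (SE 0.09).

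The other called gene makes no channel. Kcnq1ot1 is a long non-coding RNA transcribed antisense to Kcnq1 from the paternal chromosome, known for silencing neighbouring imprinted genes. Its dimmer probe (A_55_P2196922) had log2 levels of 9.39, 9.81, 9.80 and 9.64 in 3M and of 8.90, 9.15, 8.94 and 8.80 in 29M. Every array of 29M was below every array of 3M. On this probe Kcnq1ot1 fell by 0.72 on the log2 scale (limma SE 0.12, 1.64-fold, adjusted p = 0.0214), and the log2 change was -0.52, -0.67 and -0.82 within slides 1, 2 and 3. The call was kept under all 19 alternatives, with log2 changes of -0.80 to -0.66 (limma adjusted p of 0.00518 to 0.0799).

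The brightest probe of Kcnq1ot1 (A_55_P2408415) did not separate the groups. It had log2 levels of 10.89, 11.41, 11.24 and 11.12 in 3M and of 10.63, 11.65, 10.64 and 10.83 in 29M, where replicate 2 was the highest of all arrays. The log2 change was -0.23 (limma SE 0.22, adjusted p = 0.645), and it was 0.24 within slide 2. The fall of Kcnq1ot1 therefore rests on its dimmer probe. Kcnq1 itself, which encodes a channel subunit best known from the heart, had a log2 change of -0.08 (SE 0.13). The other non-coding Kcn gene with a probe, Kcnmb4os1, was well above background in 2 arrays of each group and had a log2 change of -0.06 (SE 0.11).

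In 28 genes with more than 1 probe the probes could be set against each other. All probes of a gene had the same sign in 16 genes, and the signs differed in 12. The largest and smallest log2 change within a gene were at least 0.3 apart in 8 genes, and the median gap was 0.22. The closest pair was that of Kcnma1, with a log2 change of 0.09 on both probes. The widest gap was that of Kcnc1, with log2 changes of -0.21, 0.42 and -0.24. On the probe of Kcnc1 with the positive change, replicate 1 of 3M had a log2 level of 9.88 and the other arrays had 11.31 to 12.22. Kcna6, a further axonal subunit, had log2 changes of -0.10 (SE 0.09) on its brightest probe and 0.45 (limma SE 0.18, adjusted p = 0.246) on the other.

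**Figure D4:**
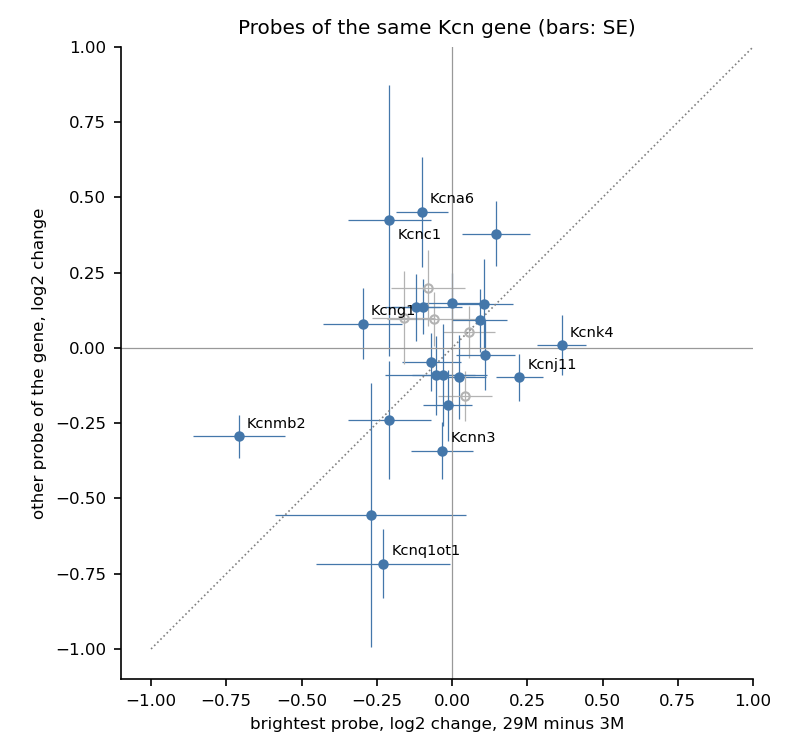
Log2 change (29M minus 3M, bars are SE) of the brightest probe of a Kcn gene (x axis) against that of each other probe of the same gene (y axis), for 26 genes. Open grey points include a probe not above background on all arrays of either group, the dotted line marks equal changes, and names are given for pairs at least 0.3 apart. Both probes of Kcnmb2 lie in the lower left, while those of Kcna6, Kcng1 and Kcnj11 have opposite signs.

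Part of the spread between arrays went with the slide. Slide and age were not balanced, since slide 1 held 1 array of 3M and 2 of 29M. A probe low on slide 1 was thus pulled down more in the mean of 29M than in that of 3M. This can touch the changes given above of probes low on slide 1, those of Kcna2, Kcnip2, Kcnh1, Kcnh7 and Kcnj6 among them. Within slides 1, 2 and 3 the log2 change was -0.04, -0.15 and -0.24 for Kcna2 and -0.16, -0.34 and -0.04 for Kcnip2. For Kcnh1 it was 0.002, -0.23 and 0.10. The part of the slide in these changes was not tested. The share of Kcn probes lower in 29M was not recomputed within slides. In 16 of 115 Kcn probes with 8 usable arrays (13.9%) the 3 arrays of slide 1 were lower than the 5 arrays of slides 2 and 3, beside 6.32% of all probes. In 3 Kcn probes (2.61%) they were higher, beside 4.86% of all probes. These were the brightest probes of Kcnd3 and Kcnip4 and the probe of Kcnt1, with slide 1 higher by 0.16, 0.23 and 0.40. Those lower on slide 1 included all or some probes of Kcna2, Kcnc1, Kcnc2, Kcnip2, Kcnj3, Kcnj6, Kcnk1 and Kcnma1. The difference was -0.53 on the log2 scale for Kcnc2, whose log2 levels were 13.07 in 3M and 13.55 and 13.65 in 29M on slide 1. On slides 2 and 3 Kcnc2 had log2 levels of 13.78 to 14.05. No Kcn probe called or passing an adjusted p under 0.1 was among them. With slide as a fixed block the median log2 change of the Kcn genes was -0.02.

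**Figure D5:**
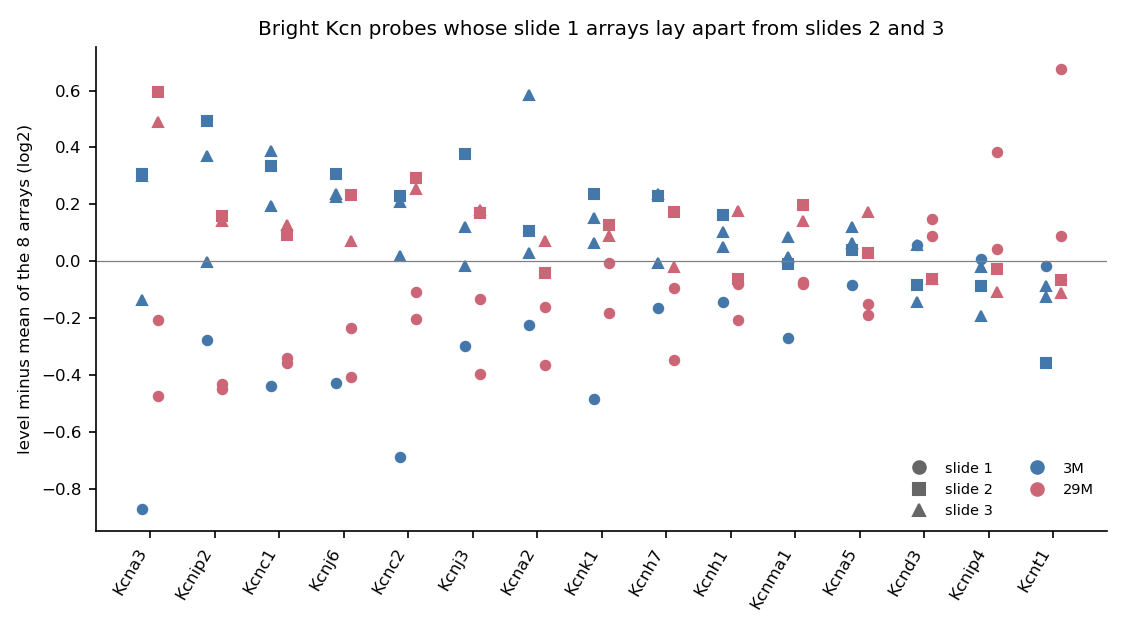
Log2 level of each array minus the mean of the 8 arrays (y axis) for Kcn probes above background whose 3 arrays of slide 1 did not overlap with the 5 arrays of slides 2 and 3, ordered by the difference (x axis, 1 column per probe). Circles are slide 1, squares slide 2 and triangles slide 3, with 3M in blue and 29M in red. In the 12 columns at the left the circles of both age groups lie at the bottom, and in the 3 columns at the right they lie at the top.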

How the data were processed

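The authors deposited 1 scanner file per array. It holds linear spot intensities, before any scaling between arrays, made per the file headers with Agilent Feature Extraction 10.7.3.1. The headers were followed where their software, scanner and array design differ from the study's methods. The labels call the molecule polyA RNA, while the protocol describes total RNA. The deposited value table of the series was not used, since its 8 columns equalled the local background of the arrays, in 1 column that of the named sample's array and in 7 that of another sample's. The Kcn genes and the lists of partner and marker genes were chosen with earlier results of these data known.

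Control spots and spots marked as outliers were left out, so the other probe of Kcnj13 had 3 arrays of 3M and that of Kcns3 had 3 of 29M. Median spot intensities were normalized by variance stabilisation (least trimmed squares, quantile 0.9, 7 iterations, a re-implementation of the study's method), and replicate spots were averaged. In limma 3.58.1 (R 4.3.3) age was the only term of the linear model, fitted to the 39408 probes that had 3 or more usable arrays in both groups, with eBayes and Benjamini-Hochberg adjustment over all of them. Calls needed an adjusted p under 0.1 together with a log2 change of 0.5 or more either way, as in the study's methods, and a gene was called through any of its probes. The normalization and the test were tested on simulated data. Without counts, the number of arrays limits the precision.

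Probes were named through their accession and RefSeq genes of GRCm38.p6, which named 66.1% of all probes. The array was designed on another build, so no coordinates are given, and no probe sequences were used here. Named genes were those called, those with separate groups and a change of at least 0.5, the largest change in each subfamily of 3 or more genes, and a list of hippocampal channels. Kcna6, Kcnj15, Kcnk10, Kcnmb1, Kcnq1, Kcns1, Kcns3, Kcng3, Kcng4, Kcnu1, Kcnmb4os1 and the BK gamma subunits were named after their values were seen. Counts and medians cover all Kcn genes, of which 4 are not reported here singly or plotted. As alternatives, 2 other signal and scaling choices and the variance stabilisation of processed signals were run, along with keeping outlier spots, a filter on dim probes, slide or replicate number as a block, another prior, other thresholds, and leaving out each array.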

Additional observations from a re-analysis of the deposited data

Results flagged for a closer look

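Replicate 1 of 3M stood apart from its group in Kcnj6, a subunit of G protein-gated inward rectifiers, with a log2 level of 9.46 against 10.11 to 10.19 in the other 3 arrays. Its distance to the nearest of them was 0.893 of the range of the group. The same comparison was made in 104 groups of 4 arrays of the named probes, where chance flags about 1 in 20, or 5.2. This was the only array flagged, so the count was under that given by chance. All 3 arrays of slide 1 were low in Kcnj6, and those of 29M on that slide had log2 levels of 9.48 and 9.65.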

How the results depend on the processing

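Of the 19 alternatives, none turned the sign of Kcnmb2, Lrrc55 or the dimmer probe of Kcnq1ot1, and the calls of the latter 2 were kept in all. The number of Kcn genes called lower was 2, and 1 (Kcnq1ot1) at an adjusted p under 0.05. Leaving out 1 array gave 1 to 2 genes lower and 0 higher, since Kcnmb2 lost its call in 5 of 8 cases (limma adjusted p up to 0.157). With no minimum change 2 genes were called higher, Kcnk13 and Kcnk4. The median log2 change of the Kcn genes ranged from -0.05 to -0.02. Of 49 named results that were not called, 33 kept their sign in all alternatives and 16 turned it in at least 1, the largest of these at a log2 change of 0.22.

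Whether the replicate numbers pair the samples was not settled. Arrays with the same number had correlations of -0.33, 0.29, -0.31 and 0.11 across probes in their deviations from the group means. Arrays with different numbers had correlations from -0.46 to 0.50, the highest between 2 arrays of slide 1. Such deviations sum to 0 within a group and also carry the slide, so these correlations cannot show whether samples were paired. With the replicate number as a block 2 Kcn genes were called lower and 0 higher, with a log2 change of -0.71 for Kcnmb2 (limma adjusted p = 0.0895) and -0.72 for Kcnq1ot1 (0.0564), and the median was -0.04. Over all probes the block left 272 higher and 156 lower, against 476 and 300 without it. Without replicate 1 of 3M, 800 and 590 were called. Without replicates 2 or 3 of 3M it was 258 and 134, or 297 and 219, and without replicates 1, 2 or 4 of 29M it was 265 and 148, 276 and 171, or 385 and 152. An adjusted p under 0.05 gave 309 and 181, and no minimum change gave 798 and 666.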
